A study of Mus musculus with 6 samples.

Results

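Long non-coding RNAs (lncRNAs) with a peak of Ago2-bound RNA over an annotated exon were examined in mouse muscle cells. Peaks of 5 libraries were merged where they overlapped or touched, which gave 41363 intervals. An interval was kept if it overlapped an exon of a GENCODE M21 gene of a lncRNA type and no exon of a protein-coding gene. The kept types were lincRNA, antisense, processed transcript, sense intronic, sense overlapping, bidirectional promoter lncRNA and TEC (a transcript still to be tested). In all, 291 intervals, or 0.704% of the total, met this rule. They were assigned to 221 genes by the longest overlap with exons.

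The cells were MSC, primary mouse satellite cells, which are the resident progenitors of skeletal muscle. They had been kept in differentiation medium for 30 h, when the study calls them post-mitotic myocytes, transfected with miR-222 or with the control duplex siGFP, and lysed 16 h later. The sample labels give a duplex concentration of 10 nM and call the source myotubes, whereas the study's methods give a higher concentration. Experiment 1 comprised control-IP 1, control-IP 2 and miR-222-IP 1, and experiment 2 comprised control-IP 3, control-IP 4 and miR-222-IP 2. Control-IP 3 was left out by the rule because its peaks had a median width of 32103 bp, although they overlapped 106 of the 291 intervals. These overlaps were spread unevenly over the chromosomes, so the 106 is no measure of coverage in every part of the genome. Strain, sex and number of donor animals are not given in the sources used here, and nothing in the labels says which libraries came from separate cultures.

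Ago2 is the protein of the RISC that carries a miRNA, and the miRNA guides it to RNAs complementary to the seed, bases 2 to 8 of the miRNA. Most known targets are mRNAs, but lncRNAs are also bound by Ago2. Some of these are hosts that are cut into miRNAs or snoRNAs, and others carry miRNA sites without coding for a protein. miR-222 and its cluster partner miR-221 share 1 seed, and miR-206 and miR-133b are miRNAs of skeletal muscle. The mature sequences that serve as the key to the sites below were taken from RefSeq on GRCm38.p6, with the seed in capitals:
miR-222-3p: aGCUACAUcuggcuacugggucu
miR-221-3p: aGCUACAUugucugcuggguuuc
miR-206-3p: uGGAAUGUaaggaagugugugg
miR-133b-3p: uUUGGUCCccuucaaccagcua
let-7a-5p: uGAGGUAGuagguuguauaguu
miR-7a-5p: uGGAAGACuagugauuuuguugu

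The sites counted were 7-mers complementary to the seeds, on the strand of the lncRNA. The 7-mer of miR-222, ATGTAGC, was present in 5 of the 291 intervals. The stretches of 30 bases around 4 of these sites are shown because they are the places in the lncRNA intervals where the transfected miRNA could pair by its seed. They were read from GRCm38 on the strand of the gene, with the 7-mer in capitals:
2810001G20Rik, chr11:64083080-64083109, plus strand: atgacctcagtATGTAGCctacgacttttt
Brip1os, chr11:86208233-86208262, plus strand: ctctgtttatgATGTAGCtcctccttacta
Gm10461, chr5:32610065-32610094, minus strand: aactatgtgtgATGTAGCgcggtgctttat
G530011O06Rik, chrX:169977900-169977929, minus strand: gcctttaacctATGTAGCctttagtacagt

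The fifth site lay in AC102342.2 on chromosome 18. Sites in 2810001G20Rik, Brip1os and Gm10461 were exonic, and those in G530011O06Rik and AC102342.2 were outside the exons of these genes. The 7-mer share was 1.72% for the lncRNA intervals against 2.60% for the 36054 protein-coding intervals with 1 strand. Among intervals over 750 bp, where a match is most frequent, 3 of 64 lncRNA intervals (4.69%) and 7.09% of the protein-coding intervals held it. The shorter 6-mer TGTAGC, which every 7-mer contains, was in 11.7% of the lncRNA intervals and 11.1% of the protein-coding intervals.

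The peaks over these 5 intervals did not follow the transfection in one way. In Brip1os the −log10 p was 49.8 in control-IP 1, 94.1 in control-IP 2, 107 in miR-222-IP 1, 73.1 in control-IP 4 and 108 in miR-222-IP 2. Each library's values here are on a scale that also rises with its depth, and after scaling between libraries the log2 ratios of miR-222-IP to control-IPs were 0.27 in experiment 1 and −0.03 in experiment 2. In G530011O06Rik the values were 63.2, 95.5, 122, 137 and 125 in the same order, with log2 ratios of 0.30 and −0.73. AC102342.2 had no peak in control-IP 1 and had 38.0 in control-IP 2, 54.5 in miR-222-IP 1, 61.4 in control-IP 4 and 93.0 in miR-222-IP 2. Peaks over Gm10461 (20.7) and 2810001G20Rik (21.9) were listed only in miR-222-IP 1 and only in miR-222-IP 2, respectively, both just above the authors' threshold of 20. The Brip1os peaks of miR-222-IP 1, control-IP 4 and miR-222-IP 2 covered the 7-mer itself, and those of control-IP 1 and control-IP 2 did not. In G530011O06Rik the 7-mer was covered by the peaks of control-IP 1 and miR-222-IP 2 and not by those of control-IP 2, miR-222-IP 1 and control-IP 4. In AC102342.2 all peaks but that of control-IP 2 covered it, and so did the single peaks of Gm10461 and 2810001G20Rik.

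A peak list gives the position and −log10 p of each peak past the threshold. Read counts are not in the lists and the depth of each library is not given in the sources used here, so a missing peak does not show that the RNA was absent. For these RNAs a greater number of molecules and stronger Ago2 binding cannot be told apart, since total RNA was not analysed here, nor can fewer cells of a type and less RNA per cell. The strandedness of the reads is not stated, so a lncRNA and an RNA from the other strand cannot be separated. The lists held 10579 to 37762 peaks in the 5 libraries, with the fewest in control-IP 1 and the most in miR-222-IP 2.

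The cell label was checked with markers. Each of 11 myocyte markers had an interval over an exon, but only miR-222-IP 2 had peaks for all 11, against 5 to 7 of them in the other 4 libraries. Myh3, a myosin of developing muscle, and Mymk, which drives fusion, had a peak in each of the 5 libraries. Among these libraries the myogenic factor Myog and Tnnt1, Chrng and Cdh15 had one in miR-222-IP 2 alone. The wide peaks of control-IP 3, left out here, also lay over Myog (139) and Chrng (190), but not over Tnnt1 or Cdh15. The list of control-IP 3 also had none over Actc1, Acta1, Mymk and the macrophage marker Csf1r, which had a peak in each of the 5 libraries. A missing peak in control-IP 3 is therefore no marker result. The sum of the highest −log10 p of the 11 markers was 249 to 301 in the other control-IPs, 421 in miR-222-IP 1 and 1313 in miR-222-IP 2. All 4 macrophage markers also had intervals, with sums of 513 to 655 in the control-IPs, 602 in miR-222-IP 1 and 608 in miR-222-IP 2. Adgre1, the macrophage antigen F4/80, reached 196 to 236 in the 5 libraries, and Ptprc had no peak in control-IP 1. Of the other lists, 2 of 5 fibroblast, 2 of 3 endothelial and 0 of 3 adipocyte markers had an interval, and Col1a1, Dcn, Lum and Kdr had no peak in the 5 libraries. The part that non-muscle cells took in the lncRNA peaks was not tested.

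The median width of the lncRNA intervals was 505 bp (193 to 2570 bp), against 372 bp for protein-coding intervals. In 223 of the 291 (76.6%) the last exon of a transcript was overlapped, a count that includes transcripts of a single exon and so gives no position within the transcript. A protein-coding gene body overlapped 67, on the same strand in 31 and on the other in 36. A further measure, the distance past the end of a protein-coding gene of the same strand, was within 5000 bp in 13. GC content (median 46.0%) was close to that of protein-coding intervals (46.7%), and the share of soft-masked repeat was 11.4% against 8.16%. The highest −log10 p of an interval had a median of 35.2 for lncRNAs and 40.3 for protein-coding exons. It passed 100 in 33 lncRNA intervals and stayed under 25 in 71.

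The lncRNA label was then set against a further annotation, and it did not hold for every interval. By RefSeq, 42 of the 291 lay over an mRNA exon of the same strand. These included 9 intervals of Zswim6, 5 of Cct6a, a subunit of the chaperonin that folds actin and tubulin, and 4 of Ifi30, a lysosomal thiol reductase, all of which GENCODE M21 types as processed transcripts. A further 65 lay over a pseudogene exon or matched a transcript of another gene at 95% identity or more over at least 50% of their length. The remaining 184 intervals (63.2%), in 149 genes, had neither feature. Near-identical loci elsewhere in the genome were not considered for these classes. The Gm43305 interval chr14:54293595-54294208, among the 184, had 10 of them. The 3 classes were set after the values were seen and are used as a description.

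The strongest peaks were concentrated in the first 2 of these classes. The median of the highest −log10 p was 42.1 over RefSeq mRNA exons, 55.2 over pseudogenes and copies, and 30.8 over the other 184 intervals. Of the 33 intervals over 100, 19 were copies or pseudogenes, 6 lay on RefSeq mRNA exons and 8 had neither feature. Gm10076 is a near-identical copy of Rpl41, which encodes a ribosomal protein, and had 215, 257, 220, 205.97 and 244 in control-IP 1, control-IP 2, miR-222-IP 1, control-IP 4 and miR-222-IP 2. AC158975.2 on chromosome 18, with 50 further near-identical loci in the genome, had 68.9, 179, 263, 155 and 232 in the same order. Reads from such sequences cannot be placed on 1 locus with certainty.

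The same held for most genes with the highest values. Gm43444 matched Glud1 (110 to 183), Gm48094 matched Supt4a (51.6 to 183), Gm49164 matched Cbx3 (62.5 to 177), 6030443J06Rik matched the methionine adenosyltransferase gene Mat2a (72.4 to 189), Gm48228 matched Selenok (42.1 to 157) and Gm26825 matched Hspa8 (134 to 174). The last of these encodes the constitutive Hsp70 chaperone. The strongest Cct6a interval, chr5:129845486-129846363, ranged from 144 to 227. Gm15564 was the only one of the top 10 genes with neither feature, with 223 to 237 in the 5 libraries, but only 18.5% of its interval was on its exon.

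Most genes had a single interval, 181 of the 221, and 40 had more. Zswim6 had the most with 9, followed by Cct6a, 1700020I14Rik (known as Cyrano) and Xist with 5 each, and 6 genes had 4 (1500004A13Rik, Gm14635, Malat1, AU020206, Gm10790 and Ifi30). The intervals of a gene did not share 1 strength or 1 set of libraries. In Zswim6 the strongest had 88.3, 53.5, 136, 144 and 129 in the 5 libraries, whereas 3 others had a peak in 1 library only. The 4 intervals of 1500004A13Rik were all copies with values of 20.6 to 30.8, and those of Gm10790 ran from a peak in miR-222-IP 2 alone to one found in 4 libraries (33.9, 24.4, 27.8 and 46.7 in all but control-IP 1). In Ifi30 the strongest interval had 37.4 and 107 in the control-IPs of experiment 1, 90.5 in miR-222-IP 1, 63.4 in control-IP 4 and 123 in miR-222-IP 2, so the 2 controls of experiment 1 were on either side of miR-222-IP 1.

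Shared sequence also carried shared miRNA sites. The miR-206 7-mer ACATTCC was found with identical flanks in Gm28901 and Gm47882, which both overlap copies or pseudogenes of other genes, and the let-7 7-mer CTACCTC with identical flanks in 3 genes, AI506816, Gm37416 and Gm42427. The windows are shown because they are 1 sequence each, not independent sites:
Gm28901, chr1:97025476-97025505, minus strand: tctgtggtcatACATTCCtgagagacaata
Gm47882, chr13:13891175-13891204, plus strand: tctgtggtcatACATTCCtgagagacaata
AI506816, chr5:23702890-23702919, minus strand: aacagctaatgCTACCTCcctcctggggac
Gm37416, chr2:16022975-16023004, minus strand: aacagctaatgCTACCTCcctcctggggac
Gm42427, chr5:44140849-44140878, plus strand: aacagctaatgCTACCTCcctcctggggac

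Over all intervals the miR-206 7-mer was in 13 lncRNA intervals (4.47%, against 3.47% of protein-coding intervals), the miR-133b 7-mer GGACCAA in 9 (3.09% against 3.16%) and the let-7 7-mer in 10 (3.44% against 3.69%). These shares are not matched for width, and the lncRNA intervals were wider. No 7-mer contains another, and only the strand of the gene was searched. An exonic miR-206 7-mer in Malat1 lay in the interval chr19:5800484-5801059 on the minus strand, and its window is shown because Malat1 is among the strongest lncRNAs below, although only the peak of miR-222-IP 2 covered the site:
Malat1, chr19:5800984-5801013, minus strand: gcggtgcggtaACATTCCttgaggtcggca

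Peaks were called unevenly across the libraries. A peak was present over 84 of the 291 lncRNA intervals in control-IP 1 (28.9%, exact binomial 95% interval 23.7 to 34.4%, counting error only), 141 in control-IP 2 (48.5%), 134 in miR-222-IP 1 (46.0%), 103 in control-IP 4 (35.4%) and 231 in miR-222-IP 2 (79.4%). Over all 41363 intervals the shares were 25.1%, 46.8%, 50.4%, 42.6% and 90.9%. The shares depended on the length of the lists. With the 10579 strongest peaks of each library, 126 lncRNA intervals were left, of which miR-222-IP 2 had a peak in 50.8% and control-IP 1 in 66.7%.

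**Figure D1:**
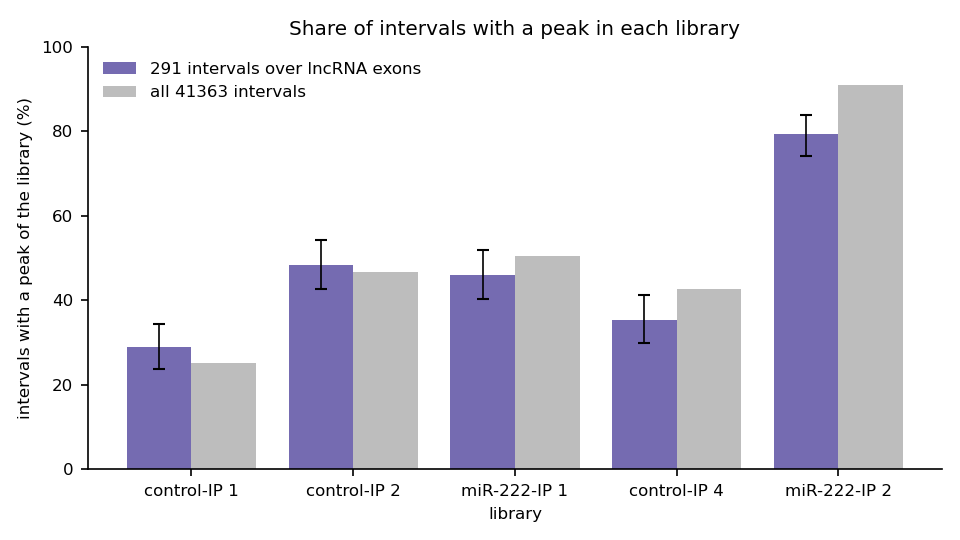
Share of intervals with a peak in each library (y axis, percent) for the 291 lncRNA intervals (purple, with exact binomial 95% intervals that cover counting error only) and all 41363 intervals (grey). The lncRNA share was below the share of all intervals in miR-222-IP 2 (79.4% against 90.9%) and in control-IP 4 (35.4% against 42.6%).

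Only 1 library had a peak in 136 of the lncRNA intervals, where 39.4% of all intervals had a peak in 1 library. These comprised 84 (28.9%) in miR-222-IP 2 alone against 31.3% of all intervals. Control-IP 2 alone held 35 (12.0% against 6.65%), control-IP 1 alone 12 (4.12% against 0.353%), miR-222-IP 1 alone 5 (1.72% against 0.914%) and control-IP 4 alone 0 (0.251% of all intervals). All 5 libraries had a peak in 50 (17.2% against 19.2%). Both miR-222-IPs and no control-IP had a peak in 14, or 4.81% against 6.37% of all intervals. The 3 strongest of these were Gm37472 (25.1 and 52.1), 2310040G24Rik (25.2 and 49.3) and Gm49797 (20.4 and 46.2), named after their values were seen. Peaks in control-IPs only were found over 50 intervals, or 17.2% against 7.38% of all, and 47 of these 50 were in control-IP 1 or control-IP 2 alone.

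Xist and Gm14635, both on the X chromosome, had peaks in 1 library alone over several intervals. Xist, the RNA that coats and silences 1 X chromosome in female cells, had 5 intervals, all with a peak in control-IP 1 alone, at 56.3, 20.5, 25.7, 42.6 and 45.3. A further interval over Xist exons, chrX:103480652-103481756, was not among the lncRNA intervals because exons of the protein-coding model Gm26992 overlap it, as do exons of the antisense gene Tsix, and there control-IP 1 had 46.2 and miR-222-IP 2 had 23.4. Control-IP 1 had the shortest list of the 5 libraries. Of the Y-linked genes Ddx3y, Eif2s3y, Kdm5d and Uty, 0 had a peak in control-IP 1, 1 in control-IP 2, 2 each in miR-222-IP 1 and control-IP 4, and 4 in miR-222-IP 2. What the donor animals contributed to this split was not tested. Without control-IP 1 the number of lncRNA intervals was 279. Gm14635 had 4 intervals, all with a peak in miR-222-IP 2 alone, at 78.7, 52.5, 21.0 and 77.1, and no peak in the other 4 libraries.

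**Figure D2:**
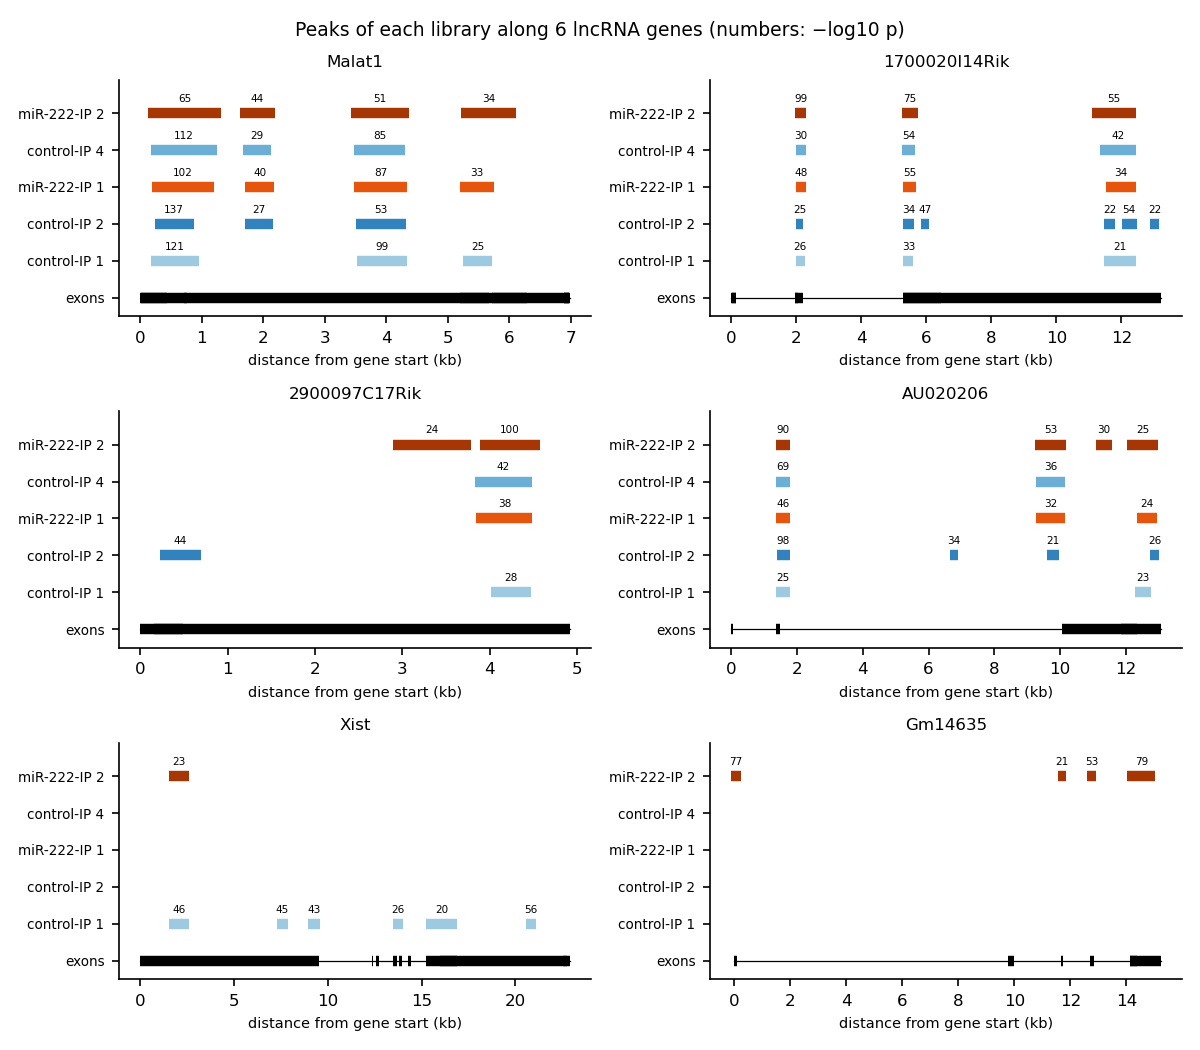
Peaks of the 5 libraries (coloured bars, with −log10 p printed above) and GENCODE exons (black) along Malat1, 1700020I14Rik (Cyrano), 2900097C17Rik (Norad), AU020206, Xist and Gm14635. The x axis is the distance from the gene start in kb in the direction of transcription. Libraries placed peaks at the same sites of Malat1, whereas Xist was covered mainly in control-IP 1 and Gm14635 only in miR-222-IP 2.

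Of the 5 nuclear lncRNAs listed, Malat1, Neat1 and Xist had an interval, and Malat1 had the strongest peaks. Malat1 is an abundant RNA of nuclear speckles and had 4 intervals, all exonic, whereas Neat1, the scaffold of paraspeckles, had 1 with a peak only in miR-222-IP 2 (29.6). Miat had none, and Tsix had none apart from the Xist interval left out for the overlap with Gm26992. The strongest Malat1 interval, chr19:5801361-5802555 on the minus strand, lay at the 5′ end and had 121 in control-IP 1, 137 in control-IP 2, 102 in miR-222-IP 1, 112 in control-IP 4 and 65.1 in miR-222-IP 2. Both miR-222-IPs were thus below every control-IP of their experiment before any scaling. After division by scaling factors (0.706 for control-IP 1 to 1.49 for miR-222-IP 2), the log2 ratios were −0.71 and −1.37, with a mean of −1.04. Malat1 was below every control-IP also without scaling and with scaling by the total in peaks, and it was the only lncRNA interval for which this held. The exact permutation test within experiments has 6 arrangements, and its one-sided p here was 0.167, the smallest it can give. Any interval beyond every control-IP in both experiments gets this value, so it adds nothing to the call.

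The next strong Malat1 interval, chr19:5798308-5799243, had 99.4, 52.6, 87.4, 85.4 and 51.2 in the same order of libraries. Its log2 ratios were −0.24 and −1.33, so miR-222-IP 2 was lower than control-IP 4, but miR-222-IP 1 lay between control-IP 1 and control-IP 2. The 2 weaker intervals had 25.3, 32.8 and 33.5 in control-IP 1, miR-222-IP 1 and miR-222-IP 2, and 27.5, 39.5, 28.6 and 43.9 in all but control-IP 1.

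**Figure D3:**
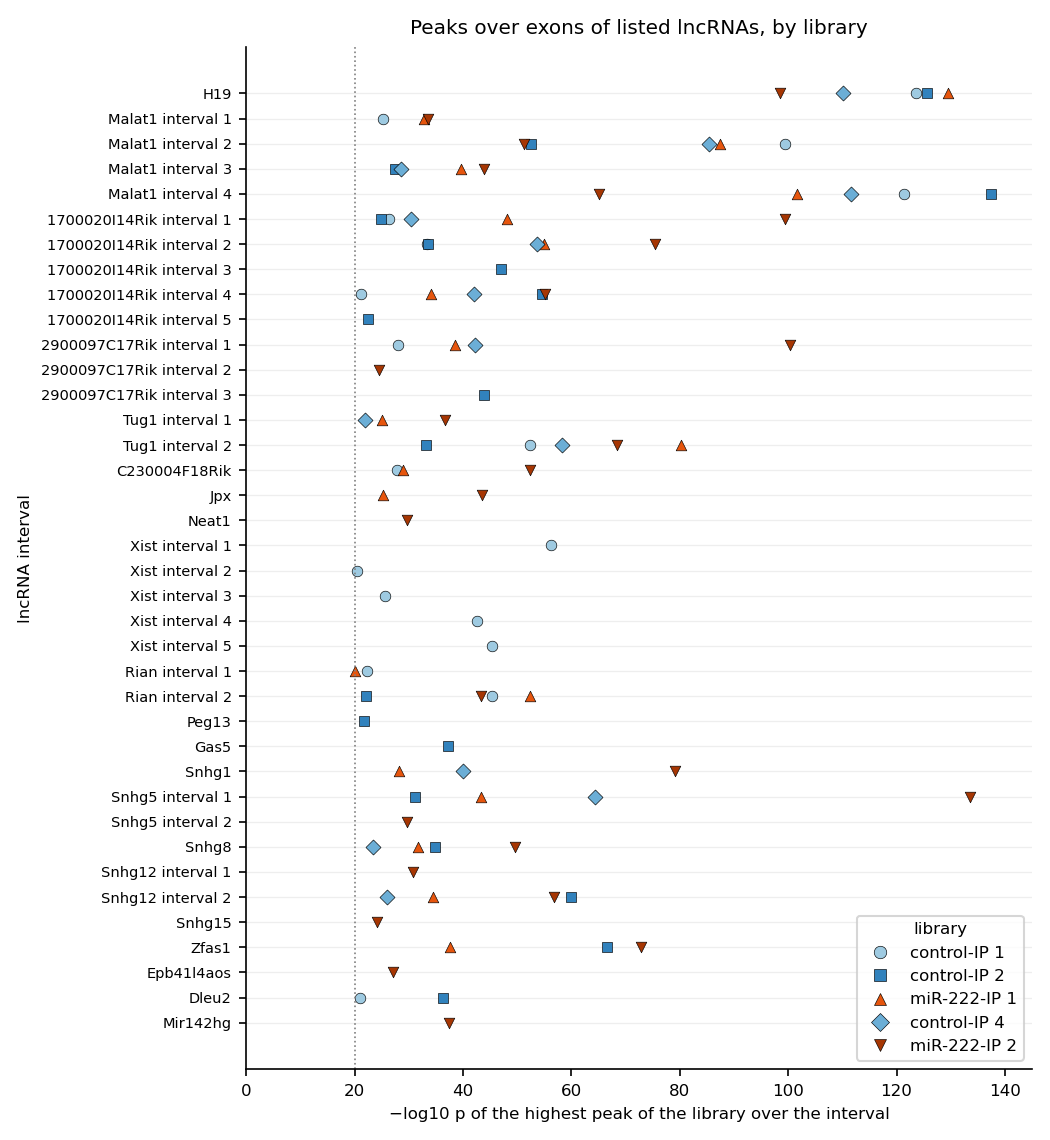
−log10 p of the highest peak of each library (x axis, 5 symbols) over each interval of the listed lncRNAs (y axis, intervals of a gene numbered by chromosome position). The dotted line is the authors' threshold of 20, and a missing symbol means no listed peak. H19 and the fourth interval of Malat1 were high in all 5 libraries, and most other intervals had a peak in some libraries only.

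Imprinted lncRNAs were represented by H19, Rian and Peg13, 3 of 8 listed, and Meg3, Mirg, Kcnq1ot1, Airn and Nespas had no interval. H19, an RNA of embryonic and regenerating muscle and the host of miR-675, had the widest interval of all (chr7:142575519-142578088, 2570 bp, minus strand), which contained Mir675. Its values were 124 and 126 in control-IP 1 and control-IP 2, 129 in miR-222-IP 1, 110 in control-IP 4 and 98.5 in miR-222-IP 2. After scaling the log2 ratios were −0.31 and −0.75 (mean −0.53), and both miR-222-IPs were below their controls. Without scaling miR-222-IP 1 was the highest of experiment 1, so this direction rests on the scaling. Rian, a snoRNA host of the Dlk1-Dio3 domain, had 45.4, 22.0, 52.4 and 43.4 in control-IP 1, control-IP 2, miR-222-IP 1 and miR-222-IP 2 in its stronger interval. Peg13 had a peak only in control-IP 2 (21.7).

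The 1700020I14Rik gene, known as Cyrano or Oip5os1, had 5 intervals on chromosome 2. Cyrano is a conserved lncRNA that triggers decay of miR-7 through a long, nearly complementary site. The interval chr2:119596257-119596592, 75.3% exonic, had 26.3 in control-IP 1, 24.8 in control-IP 2, 48.2 in miR-222-IP 1, 30.4 in control-IP 4 and 99.4 in miR-222-IP 2. Both miR-222-IPs were above every control-IP, with log2 ratios of 0.54 and 1.11 (mean 0.83, the largest of the 50 lncRNA intervals found in every library). The call held without scaling but not after scaling by the total in peaks. The exact permutation p was 0.167, again the smallest possible and fixed by the call itself.

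Other Cyrano intervals did not share this pattern. At chr2:119599552-119600027 the values were 33.3, 33.6, 54.9, 53.6 and 75.4, with log2 ratios of 0.35 and −0.10. At chr2:119605398-119606768 they were 21.2, 54.5, 34.2, 42.1 and 55.1, with ratios of −0.41 and −0.20. The remaining 2 intervals had a peak in control-IP 2 alone (47.0 and 22.5).

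The miR-7 7-mer GTCTTCC occurs at 2 places in Cyrano exons. Beyond the seed, the longest run of bases complementary to miR-7 was 3 bases at the first place and 12 bases at the second. The windows are given because the first lay in an interval, where only the peak of miR-222-IP 2 covered it, and the second did not:
Cyrano, chr2:119599948-119599977, plus strand: aggttttttttttaatGTCTTCCaatttta
Cyrano, chr2:119602138-119602167, plus strand: caacaaaatcaccaatGTCTTCCattttga

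The second site was 1775 bp from the nearest interval, and no library had a peak past the threshold there. In contrast, miR-7 7-mers were densest in C230004F18Rik, which RefSeq names Cdr1os. Its interval, chrX:61183254-61183905 on the plus strand, held 31 of the 52 miR-7 7-mers of all lncRNA intervals within 652 bp, or 4.75 per 100 bp. No other lncRNA interval had more than 3, and the highest count among the 36054 protein-coding intervals was 4. In all, 18 lncRNA intervals (6.19%) held the 7-mer, against 5.41% of protein-coding intervals, not matched for width. The locus is known for Cdr1as, a circular RNA that binds miR-7, but the lists do not separate circular from linear RNA. An exon of the mRNA Cdr1 lies on the other strand of the same interval. The first 3 of the 31 windows show the repeated site:
C230004F18Rik, chrX:61183262-61183291, plus strand: ccagtaccaagGTCTTCCaacatctccagg
C230004F18Rik, chrX:61183280-61183309, plus strand: aacatctccagGTCTTCCagcaactgcaag
C230004F18Rik, chrX:61183298-61183327, plus strand: agcaactgcaaGTCTTCCaacactgtcaag

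Peaks over this interval had 27.8 in control-IP 1, 28.9 in miR-222-IP 1 and 52.4 in miR-222-IP 2, and none was listed in control-IP 2 or control-IP 4. The peak of control-IP 1 spanned the whole interval, and those of the miR-222-IPs lay within it. The plot of 7-mers and peaks shows that these peaks overlapped.

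**Figure D4:**
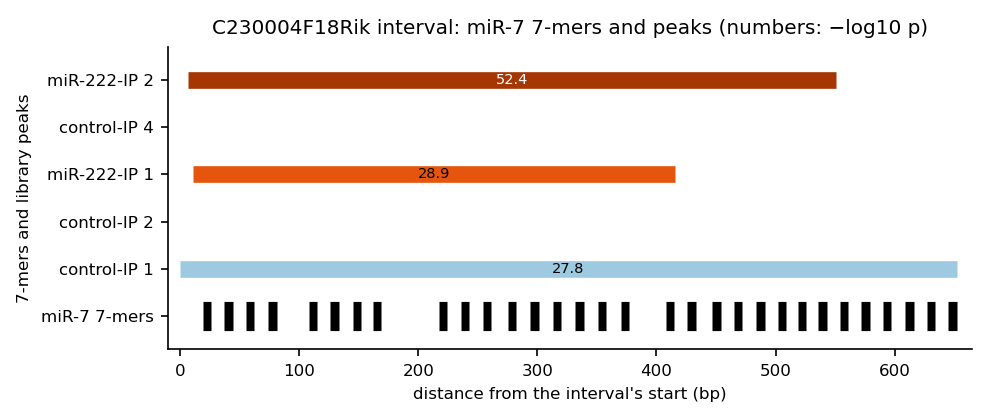
Positions of the 31 miR-7 7-mers (black) and of library peaks (coloured bars, −log10 p printed inside) in the 652 bp interval of C230004F18Rik, as distance in bp from its start. Peaks were listed in control-IP 1 (27.8), miR-222-IP 1 (28.9) and miR-222-IP 2 (52.4), all over the repeated 7-mers.

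Of the other lncRNAs known for binding RNA or protein, Norad, Tug1 and Jpx also had intervals, and Lncpint, Pvt1, Ftx, Rmst and Firre had none. Norad (2900097C17Rik), which holds Pumilio proteins in the cytoplasm, had 3 intervals. Near its 3′ end, chr2:156388409-156389152 had 28.1 in control-IP 1, 38.4 in miR-222-IP 1, 42.2 in control-IP 4 and 100 in miR-222-IP 2, with no peak in control-IP 2. The Pumilio motif TGTANATA was absent from this interval and occurred 1 time in each of the other 2, which had a peak in miR-222-IP 2 alone (24.4) or control-IP 2 alone (43.8). The motif was found in 19 lncRNA intervals (6.53%) against 6.19% of protein-coding intervals, not matched for width, with 3 copies in the weaker Rian interval. Tug1, an RNA that binds repressive chromatin proteins, had 52.3, 33.2, 80.2, 58.2 and 68.3 in its main interval, with log2 ratios of 0.49 and −0.36 that point in opposite directions. Jpx, an RNA that activates Xist, had a peak only in miR-222-IP 1 (25.2) and miR-222-IP 2 (43.6), and its interval overlapped a pseudogene or copy.

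Hosts of small RNAs formed another group. Of 21 listed snoRNA hosts, 18 were found in the annotation by these symbols and 8 had an interval: Gas5, Snhg1, Snhg5, Snhg8, Snhg12, Snhg15, Zfas1 and Epb41l4aos. Found by position instead, 14 of the 69 lncRNA genes that hold a snoRNA on the same strand had an interval, where 1.65% of all 13369 annotated lncRNA genes had one, and 12 of their 53 snoRNA genes lay under one. The 14 included Cct6a, with intervals on RefSeq mRNA exons, and AI506816, whose only gene of snoRNA type was Mir3096. The share of all lncRNA genes also includes genes with intervals on mRNA exons or copies. Of the 8 listed hosts with an interval, Snhg5 had the strongest peak. It had no peak in control-IP 1 and 31.1, 43.3, 64.3 and 134 in control-IP 2, miR-222-IP 1, control-IP 4 and miR-222-IP 2 (chr9:88521037-88522071). Snhg1, an RNA spliced from a host of 8 annotated snoRNAs, had 28.2, 40.0 and 79.1 in miR-222-IP 1, control-IP 4 and miR-222-IP 2.

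The hosts were found in different sets of libraries. Zfas1 had 66.6 in control-IP 2, 37.6 in miR-222-IP 1 and 72.8 in miR-222-IP 2, and no peak in control-IP 4. Gas5, whose interval contained Snord47, had a peak in control-IP 2 alone (37.3). Snhg12, the host of Snord99, had 60.0 in control-IP 2 against 34.4, 25.9 and 56.7 in miR-222-IP 1, control-IP 4 and miR-222-IP 2. Snhg8, over Snora24, had 34.9, 31.6, 23.4 and 49.5 in the same libraries. None of the 8 listed hosts had a peak in control-IP 1, which had a peak over only 25.1% of all intervals. Beyond the list, 1110038B12Rik, over Snord52, had a peak in all 5 libraries (22.4, 37.5, 34.4, 39.1 and 76.9).

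Hosts of miRNAs were fewer. Of 12 listed, Dleu2 and Mir142hg had an interval, and by position 10 of the 116 lncRNA genes that hold a miRNA had one, against the same 1.65% of all lncRNA genes. The 10 included Zswim6, with intervals on RefSeq mRNA exons, and 6030443J06Rik and Gm48228, with intervals that matched other genes. Mir675 in H19 and Mir142 in Mir142hg were the only hosted miRNA genes under an interval. Dleu2, the host of miR-15a and miR-16-1, had 21.0 in control-IP 1 and 36.3 in control-IP 2. It had no peak in miR-222-IP 1, and in experiment 2 neither control-IP 4 nor miR-222-IP 2 had one. Its interval did not include the miRNA genes. Mir142hg, the host of a miRNA of blood cells, had a peak in miR-222-IP 2 alone (37.4).

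The 50 lncRNA intervals found in each of the 5 libraries allowed a comparison of miR-222-IP with control-IPs. Their median log2 ratio was −0.04 in experiment 1 and 0.02 in experiment 2, against −0.03 and 0.01 over the 7935 intervals of all kinds, with SDs among the lncRNA intervals of 0.47 and 0.59. The log2 ratio of control-IP 1 to control-IP 2 over the same 50 had an SD of 0.69, so most ratios were within the spread between these controls. Both miR-222-IPs were above every control-IP of their experiment in 9 of 50 (18%, against 17.4% of all intervals) and below in 8 of 50 (16%, against 18.4%). Against the mean of the controls, 14 of 50 lay above 0 in experiment 1 and in experiment 2 (27% of all intervals), and 15 lay below 0 in each (28.8%). These shares were close to the background and are not a result about lncRNAs. The split depended on the scaling, with 23 above and 1 below without it and 0 above and 16 below after scaling by the total in peaks, while the median of all intervals stood at 0.46 and −0.43.

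**Figure D5:**
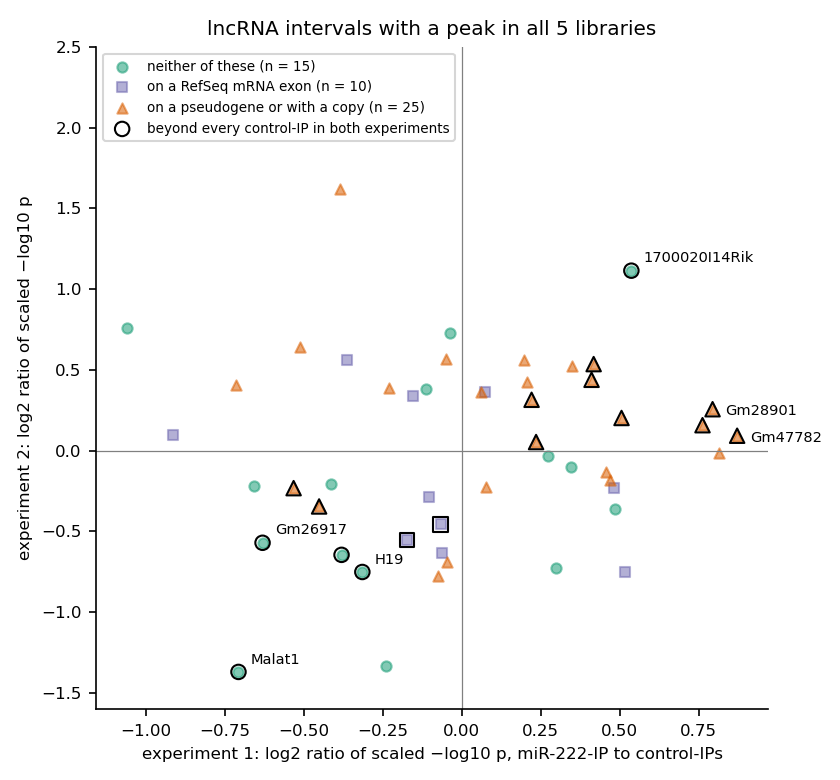
Log2 ratio of scaled −log10 p, miR-222-IP to the control-IPs of the experiment, in experiment 1 (x axis) and experiment 2 (y axis) for the 50 lncRNA intervals found in each library, by class (colour and symbol). Black outlines mark the 17 intervals beyond every control-IP in both experiments, with Malat1 (−0.71 and −1.37) and 1700020I14Rik (0.54 and 1.11) at the extremes.

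Counts above and below the controls were small in each class, and the classes were set after the values were seen. Over all intervals with a peak in all 5 libraries, 17.4% were above and 18.4% below. Of the 25 copies or pseudogenes with a peak in all 5 libraries, 8 were above (32%) and 2 below (8%). Of the 10 intervals on RefSeq mRNA exons, 0 were above and 2 below (20%). Of the 15 others, 1 (Cyrano) was above (6.67%) and 4 were below (26.7%). Median log2 ratios were 0.21 and 0.26 for the copies, −0.08 and −0.26 for the mRNA exons and −0.24 and −0.22 for the others. The calls depended on the scaling. After scaling by the total in peaks no interval of any class was above, and without scaling only Malat1 was below. The difference between the classes was not tested.

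Among intervals beyond their controls, the largest ratios after Cyrano were those of Gm28901 and Gm47782. Gm28901 had 29.0, 34.9, 70.6, 64.5 and 116, with log2 ratios of 0.79 and 0.26 (mean 0.53). Gm47782, over a processed pseudogene and near-identical to Arhgap1 sequence, had 21.7, 28.4, 58.0, 63.5 and 102, with ratios of 0.87 and 0.09 (mean 0.48). Both were above their controls also without scaling but not after scaling by the total in peaks. After Malat1, the lowest such intervals were Gm26917 (65.6, 63.0, 53.9, 67.9 and 68.9, mean −0.60) and H19. Gm26917 lay 2387 bp from the annotated rRNA gene CT010467.1 on chromosome 17, and its call was not made without scaling. The other 6 intervals above their controls were all copies or pseudogenes, with mean log2 ratios of 0.14 (Gm29514) to 0.48 (Gm4349, matched to Setdb1). The other 5 below were Gm15564 (−0.51), Gm10076 (−0.40), AC157548.1 (−0.38, matched to the tubulin gene Tuba1b), 1 interval of Ifi30 (−0.36) and AI506816 (−0.26). The last 2 were above their controls without scaling. None of the 17 can have an exact permutation p under 0.167 in this design, and the call gives each of them that value.

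Among intervals that could be compared in 1 experiment only, D430020J02Rik stood out after its values were seen. It had 126 in control-IP 4 and 31.5 in miR-222-IP 2 and no peak in experiment 1, a log2 ratio of −2.59 with no replicate. Lockd, a lncRNA 25720 bp past the end of Cdkn1b, the gene of p27, had 27.7 in control-IP 2, 20.0 in miR-222-IP 1, 28.8 in control-IP 4 and 64.3 in miR-222-IP 2. In experiment 2 this was a log2 ratio of 0.57, whereas in experiment 1 miR-222-IP 1 was lower than control-IP 2. AU020206 had 4 intervals, the strongest with 25.2, 98.4, 45.9, 69.4 and 89.8, in which miR-222-IP 1 lay between the 2 controls of its experiment.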

How the data were processed

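Peak lists of 6 RISC-IP libraries were used, 4 control-IPs and 2 miR-222-IPs in 2 experiments. The authors aligned reads to mm10 with SOAPSplice, called peaks with MACS2 in each library (versions not given in the sources used here) and deposited, for each peak past a threshold of 20, its position and −log10 p. A −log10 p rises with enrichment and with depth, which is not given per library, and its ratios say nothing of fold changes in read number. Count tests were not possible.

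Peaks of 5 libraries were merged where they touched or overlapped, and exons came from GENCODE M21 (Python 3.11.15, pandas 2.3.3, numpy 2.4.6, scipy 1.17.1, pysam 0.24.0). An interval took the highest −log10 p of each library. Values were scaled by the median of ratios over intervals with a peak in all 5 libraries. Log2 ratios set each miR-222-IP against the mean of its control-IPs, with experiment as the block, and the exact permutation test was run within experiments. Copies were found with BLAST 2.17.0 (95% identity over 50% of the interval). Merging, scaling, ratios and calls were tested on simulated data.

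Genes named were the fixed lists and script-found hosts, the 10 genes with the highest −log10 p and those with most intervals, the 3 largest and 3 smallest mean ratios among intervals beyond their controls, and each interval with a miR-222 7-mer. Intervals, lists and markers were chosen with earlier results of these data known. No columns from other samples were used.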

Additional observations from a re-analysis of the deposited data

How the results depend on the processing

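With only peaks over 50, 91 intervals in 78 genes remained, with 44.0% in control-IP 4, 94.5% in miR-222-IP 2 and 36.3% in miR-222-IP 2 alone. Leaving out RefSeq mRNA exons, pseudogenes and copies, chosen after seeing the data, left 184 intervals, with a peak in 23.4%, 39.1%, 32.1%, 23.4% and 73.4% in control-IP 1, control-IP 2, miR-222-IP 1, control-IP 4 and miR-222-IP 2, 37.5% in miR-222-IP 2 alone, a median log2 ratio of −0.21, and 1 above and 4 below. At equal list length control-IP 1, control-IP 4, miR-222-IP 2 and miR-222-IP 2 alone had 66.7%, 51.6%, 50.8% and 3.17%. The median log2 ratio (mean of both experiments) was 0.10, and became 0.56 without scaling, −0.33 with scaling by the total, −0.23 with missing peaks at the list's lowest value and −0.073 for intervals at least 50% exonic. The median of all intervals moved by the scaling too, from 0.00 to 0.46 and −0.43. The counts above and below, 9 and 8, became 23 and 1 without scaling, 0 and 16 with the total, and 20 and 135 with missing peaks filled, which by construction adds intervals. Leaving out each library in turn gave 204 to 291 intervals, 161 to 221 genes, medians of −0.046 to 0.070, 16 to 25 above and 12 to 25 below. Fewer controls have to be passed there, and without miR-222-IP 1, miR-222-IP 2 or control-IP 4 only 1 experiment is left. The lowest number of intervals, 204, was without miR-222-IP 2. The 6-mer share was 11.7% and the share on both strands 5.15%.

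Signs reversed with scaling by the total for Gm29514 (−0.28), Gm15537 (−0.15), 6030443J06Rik (−0.094), Gm47162 (−0.032) and Gm47381 (−0.010), and without scaling for Gm10076 (0.073), AC157548.1 (0.082), Ifi30 (0.11) and AI506816 (0.21). The replicate block changed little, with a median of 0.09 without it. Of 153 values of single intervals under the alternatives, 112 moved by less than the spread between the experiments. This count includes the settings in which a left-out library removed the ratio of a whole experiment. The value is then close to the ratio of the remaining experiment, which lies within this spread of the mean nearly by construction. For these settings the count therefore says nothing about how stable the values are.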
